A study of Mus musculus with 18 samples.

Results

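The liver transcripts of 8 enzymes of the pentose phosphate pathway and of cytosolic NADPH supply were compared between wild-type (WT) and *Gpr180*KO mice fed a high-fat diet (HFD). The members were chosen by symbol: *G6pdx*, *Pgls* and *Pgd* of the oxidative branch, *Rpe*, *Rpia*, *Tkt* and *Taldo1* of the non-oxidative branch, and *Idh1*, the cytosolic NADP-dependent isocitrate dehydrogenase. They are 8 of 23352 gene symbols in the deposited tables. Each had 1 entry per table with a usable estimate in all 18 livers, and all 8 were among the 10835 genes tested, those whose mean over the livers reached 1 FPKM. FPKM is a read number divided by transcript length and by the mapped reads of the library, so levels of different genes can be set side by side.

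The livers came from 9 male WT and 9 male *Gpr180*KO mice aged 20 weeks, 1 library per mouse, and all 18 mice received the HFD. *Gpr180*KO is a global knockout made by CRISPR deletion of exon 6 on a C57BL/6J background, so the deletion is present in every cell type of the liver and of the rest of the body. The sample titles have 2 styles, called here series 1 (4 livers per genotype) and series 2 (5 per genotype). *Gpr180* itself was at 6.79 ± 1.99 FPKM in WT livers and at 1.6 ± 0.37 FPKM in those of the knockout (mean ± SD, n = 9 each, log2 difference -2.0, limma adjusted p = 4.74e-06), as the labels state.

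The oxidative branch of the pentose phosphate pathway removes a carbon from glucose 6-phosphate and reduces NADP to NADPH at the steps of *G6pdx* and *Pgd*. The non-oxidative branch interconverts sugar phosphates, which lets a cell make ribose 5-phosphate for nucleotides or return carbon to glycolysis. In the liver, NADPH is spent on fatty acid and cholesterol synthesis and on keeping glutathione and thioredoxin reduced. *Idh1* makes NADPH from isocitrate in the cytosol without using the pathway.

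Of the 8 members, *Pgd* alone passed the threshold in *Gpr180*KO against WT livers, with a mean of 62.9% of the WT mean. It was 1 of 8 members called lower (limma on log2(FPKM + 0.1), Benjamini-Hochberg adjustment over all genes tested, threshold 0.05), where 4.28% of all genes tested were called lower. None of the members was called higher, against 0.452% of all genes. At an unadjusted p under 0.05, *G6pdx*, *Pgd* and *Tkt* were lower (3 of 8), as were 19.6% of all genes tested, and no member was higher. The median log2 difference of the members was -0.23, while that of all genes tested was -0.13, with 76.9% of all genes below 0. No member had groups that did not overlap, and 0.231% of all genes tested did.

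**Figure D1:**
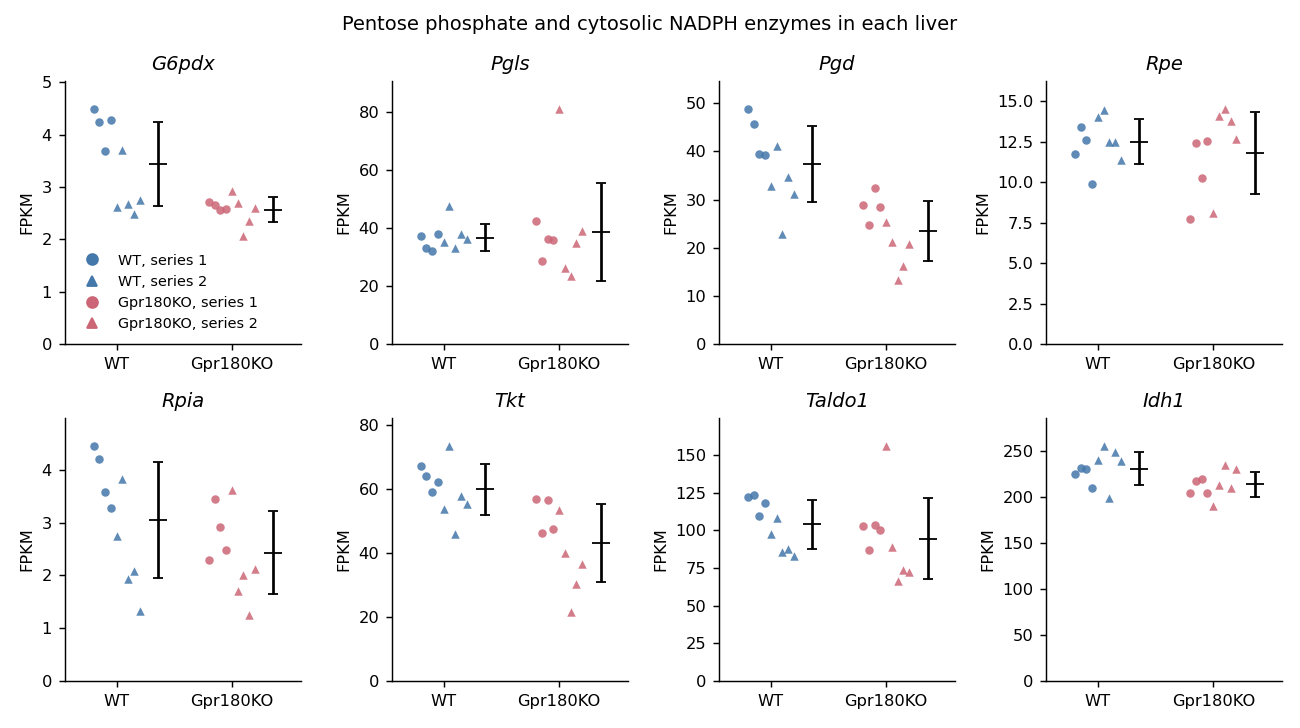
FPKM of each of the 8 members (vertical axes, each from 0) in every WT and *Gpr180*KO liver. Circles are livers of series 1 and triangles those of series 2, and the bar beside each group is the mean ± SD of 9 livers. *Pgd* lies lower in *Gpr180*KO livers with some overlap, *G6pdx* is spread out only in WT livers, and 1 *Gpr180*KO liver of series 2 is far above the others for *Pgls* and *Taldo1*.

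The members covered a wide range of levels. In WT livers *Idh1* was highest (231 ± 18.1 FPKM, SD, n = 9), followed by *Taldo1* (104 ± 16) and *Tkt* (59.9 ± 8.02). *Pgd* (37.3 ± 7.87) and *Pgls* (36.8 ± 4.65) came next and lay within each other's spread. *Rpe* had 12.5 ± 1.41 FPKM, and *G6pdx* (3.44 ± 0.81) and *Rpia* (3.05 ± 1.09) were lowest and not separable by their spread. Per transcript length, the gene of the step that commits glucose 6-phosphate to the pathway was thus among the least abundant of the 8. The order of the means was the same in *Gpr180*KO livers except that *Pgls* (38.7 ± 17.0) stood above *Pgd* (23.5 ± 6.21). The estimates of the low members were also the least precise: the intervals deposited with the values had a median half-width of 26.0% of the value for *Rpia* and 20.9% for *G6pdx*, against 3.16% for *Idh1*. These intervals describe the estimation of a single library, not the spread between mice. For *Pgls* and *Taldo1* the deposited value lay above its own interval in every liver. In KO51, *Pgls* had 81.1 FPKM with an interval of 59.2 to 72.8. *Pgd* lay above its interval in W317, W318 and W319. The intervals of these members are thus no measure of precision around the value, and the reason was not tested.

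*G6pdx* (chrX:74409486-74429161, minus strand, GRCm38) encodes the X-linked glucose 6-phosphate dehydrogenase, the entry enzyme of the oxidative branch. Its level ran from 2.49 to 4.48 FPKM in WT livers (median 3.68) and from 2.07 to 2.92 FPKM in *Gpr180*KO livers (median 2.60). The WT livers of series 1 stood above 4 of the 5 WT livers of series 2, whereas the *Gpr180*KO livers of both series stayed close together. The *Gpr180*KO mean was 74.8% of the WT mean, a log2 difference of -0.38 (SE 0.12) that missed the threshold (limma adjusted p = 0.0801). In series 1 the 4 *Gpr180*KO livers (2.56 to 2.72 FPKM) lay below the 4 WT livers (3.68 to 4.48 FPKM), with a log2 difference of -0.64. In series 2 the ranges overlapped (2.07 to 2.92 against 2.49 to 3.70 FPKM) and the difference was -0.16. The share of all genes whose genotypes separate within 1 series was not counted, here or for the members below. Exons of *Ikbkg* on the opposite strand cover 418 of the 3080 annotated exonic bases of *G6pdx*, and no strand was recorded for the reads, so part of the signal could be shared.

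The promoters of the members were taken from RefSeq (GRCm38.p6, 250 bases before and 50 after the start site, matched for 8 of 8) and searched on both strands for CACGTG (E-box, the core of the motif bound by ChREBP and SREBP), TGACNNNGC (the antioxidant response element core, bound by NRF2), TCACNCCAC (a sterol regulatory element) and GGGCGG (the GC box). The GC box was found in 8 of 8 members and in 35.7% of 32851 promoters of the same length. The member promoters were also richer in G and C (56.7 to 67.3%, with 17 to 32 CpG) than the median promoter (52.7%, with 7 CpG). The part of base composition in the count was not tested. The antioxidant response element core was found in 1 of 8, *G6pdx*, and in 12.4% of all promoters. The E-box and the sterol regulatory element were in 0 of 8 members and in 7.15% and 1.24% of all promoters. A match describes the letters only, and no match leaves the rest of the gene unsearched. The stretch of *G6pdx* around the antioxidant response element core (chrX:74428919-74428947, minus strand) is shown because no other member had one, with the match in capitals, which is the motif as spelled above on the other strand. It ran from 67 to 39 bases before the RefSeq start and lay inside the first exon of a longer annotated transcript. This RefSeq start lay 281 bases inside the deposited span of *G6pdx*, so the bases upstream of that span were not searched.
G6pdx: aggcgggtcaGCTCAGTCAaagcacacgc

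*Pgls* (chr8:71592184-71596267, plus strand) encodes 6-phosphogluconolactonase, which opens the lactone made by *G6pdx*. WT livers ranged from 32.1 to 47.8 FPKM (median 36.2) and *Gpr180*KO livers from 23.5 to 81.1 FPKM (median 36). The groups overlapped over the whole WT range, and 1 *Gpr180*KO liver, KO51, held the value of 81.1 FPKM. On the log2 scale the difference was -0.01 (SE 0.17, limma adjusted p = 0.977) although the *Gpr180*KO arithmetic mean was 105% of the WT mean, and it was -0.15 without KO51. Exons of *Fam129c* on the same strand share 776 bases with *Pgls* exons, which makes the split of reads between these genes uncertain.

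*Pgd* (chr4:149149985-149166707, minus strand) encodes 6-phosphogluconate dehydrogenase, which makes the second NADPH of the oxidative branch and releases ribulose 5-phosphate. It measured 22.9 to 48.7 FPKM in WT livers (median 39.3) and 13.3 to 32.4 FPKM in *Gpr180*KO livers (median 24.7). Of the *Gpr180*KO livers 4 lay below every WT liver, and 7 WT livers lay above every *Gpr180*KO liver, the 2 others being W134 and W157. *Pgd* fell by 0.69 on the log2 scale (SE 0.16, limma adjusted p = 0.0274). In series 1 all 4 *Gpr180*KO livers (24.7 to 32.4 FPKM) were below all 4 WT livers (39.3 to 48.7 FPKM), and in series 2, where 4 of 5 were below all WT livers, the ranges were 13.3 to 25.3 and 22.9 to 41.2 FPKM. The log2 difference was -0.60 in series 1 and -0.76 in series 2. The call was near the threshold: with median-of-ratios scaling between libraries, which puts the median of all genes at about 0, the difference was -0.56 (limma adjusted p = 0.0507), and it was also lost without W317, W318, W133, KO52 or KO54 (limma adjusted p of at most 0.0636). With the series as a block in the fit the limma adjusted p was 0.00403, and then *Pgd*, *G6pdx* and *Tkt* were called lower (3 of 8, against 9.52% of all genes). With both the block and median-of-ratios scaling *Pgd* alone was called (1 of 8, against 3.6% of all genes), with limma adjusted p-values of 0.0140 for *Pgd*, 0.172 for *G6pdx* and 0.0979 for *Tkt*.

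Because *Pgd* was the called member, the bases upstream of its start are shown with the GC box in capitals, from 250 to 67 bases before the RefSeq start (chr4:149166772-149166955, minus strand), which no annotated exon covers.
Pgd: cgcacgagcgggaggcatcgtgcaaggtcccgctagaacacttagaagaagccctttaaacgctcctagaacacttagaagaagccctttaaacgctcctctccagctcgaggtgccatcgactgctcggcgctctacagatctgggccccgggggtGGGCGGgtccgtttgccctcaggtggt

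*Rpe* (chr1:66700893-66719805, plus strand) encodes ribulose 5-phosphate 3-epimerase, which turns the product of *Pgd* into xylulose 5-phosphate. It had 9.89 to 14.5 FPKM in WT (median 12.5) and 7.74 to 14.5 FPKM in *Gpr180*KO livers (median 12.5), so the groups lay over each other. The log2 difference was -0.11 (SE 0.12, limma adjusted p = 0.606) and turned to 0.015 with median-of-ratios scaling. Exons of *Kansl1l* on the opposite strand cover 558 bases of *Rpe* exons.

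*Rpia* (chr6:70765720-70792175, minus strand) encodes ribose 5-phosphate isomerase, the step to ribose 5-phosphate. Its values were 1.32 to 4.46 FPKM in WT (median 3.29) and 1.24 to 3.63 FPKM in *Gpr180*KO livers (median 2.29). The spread within each genotype was large, and the WT livers of series 1 (3.29 to 4.46 FPKM) stood above 4 of the 5 WT livers of series 2. The genotypes differed by -0.29 on the log2 scale (SE 0.23, limma adjusted p = 0.455).

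*Tkt* (chr14:30549149-30574722, plus strand) encodes transketolase, which moves carbon pairs between sugar phosphates and links the pathway to glycolysis. WT livers had 46.0 to 73.4 FPKM (median 58.9) and *Gpr180*KO livers 21.6 to 56.7 FPKM (median 46.2). The lowest *Gpr180*KO livers were KO53 and KO54 of series 2, and the groups overlapped. The *Gpr180*KO mean was 72.1% of the WT mean, with a log2 difference of -0.52 (SE 0.16) that did not pass the threshold (limma adjusted p = 0.0605). It was -0.29 in series 1, where all 4 *Gpr180*KO livers (46.2 to 56.7 FPKM) were below all WT livers (58.9 to 67.3 FPKM), and -0.70 in series 2. Without KO51, KO319 or KO321 the limma adjusted p of *Tkt* was between 0.0403 and 0.0425. *Tkt* had more GC boxes in its promoter than any other member, 5 of the 14 matches found in the 8 promoters. The 30 bases before its RefSeq start, in an exon of another annotated transcript (chr14:30549101-30549130, plus strand), hold 3 of them, on the opposite strand and partly overlapping.
Tkt: gcgccCCGCCCcacctCCGCCCCGCCCccc

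*Taldo1* (chr7:141392160-141402976, plus strand) encodes transaldolase, the partner of transketolase in returning carbon to fructose 6-phosphate. It measured 82.8 to 123 FPKM in WT (median 108) and 66.0 to 155.97 FPKM in *Gpr180*KO livers (median 88.7). KO51 again held the highest value, and the next *Gpr180*KO liver had 103 FPKM. With all livers the log2 difference was -0.17 (SE 0.14, limma adjusted p = 0.476) and -0.26 (limma adjusted p = 0.151) without it. In series 1 the 4 *Gpr180*KO livers (87.1 to 103 FPKM) lay below all WT livers (109 to 123 FPKM). How many of all genes separate in this way was not counted. The 250 bases before its RefSeq start (chr7:141391910-141392159, plus strand) are shown for comparison with *Tkt*, since the ratio of the pair is described further on. They hold a single GC box, in capitals.
Taldo1: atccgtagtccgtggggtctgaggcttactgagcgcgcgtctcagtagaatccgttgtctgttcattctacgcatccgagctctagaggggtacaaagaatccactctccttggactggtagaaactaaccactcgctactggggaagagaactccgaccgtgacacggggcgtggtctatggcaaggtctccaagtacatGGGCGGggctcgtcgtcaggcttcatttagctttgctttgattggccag

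*Idh1* (chr1:65158616-65186479, minus strand) ranged from 199 to 256 FPKM in WT livers (median 232) and from 191 to 235 FPKM in *Gpr180*KO livers (median 214). It varied least of the 8, with a coefficient of variation of 7.81% in WT and 6.48% in *Gpr180*KO livers, against 35.8% for *Rpia* in WT livers. The log2 difference was -0.11 (SE 0.06, limma adjusted p = 0.320), and with median-of-ratios scaling it was 0.015 (SE 0.07). *Idh1* made up 47.5% of the summed FPKM of the 8 members in WT livers and 50.4% in *Gpr180*KO livers.

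The scaling between libraries bears on the small differences. FPKM tables carry no correction for a few genes that take up much of a library, and under median-of-ratios scaling the median log2 difference of all genes moved from -0.13 to -0.01. Measured from the median of all genes tested, the log2 differences were -0.56 for *Pgd*, -0.39 for *Tkt* and -0.25 for *G6pdx*, and 0.02 for both *Rpe* and *Idh1*. With that scaling 0 of 8 members were called (limma), against 1.58% of all genes lower, and 3 of 8 had an unadjusted p under 0.05. The libraries correlated with each other at r = 0.906 to 0.979 over all genes tested (153 pairs). KO51 had the highest FPKM sum (718746, the median being 570149) and the lowest mean correlation with its own group. Its values for *Pgls* and *Taldo1* were the highest of all 18 livers and its *Idh1* value the lowest. Without KO51 *Pgd* and *Tkt* were called lower (2 of 8), against 6.36% of all genes. Relative depth, estimated from the FPKM steps of genes with few reads, was 61.1 to 100% of the deepest library in WT and 44.4 to 94.0% in *Gpr180*KO livers.

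**Figure D2:**
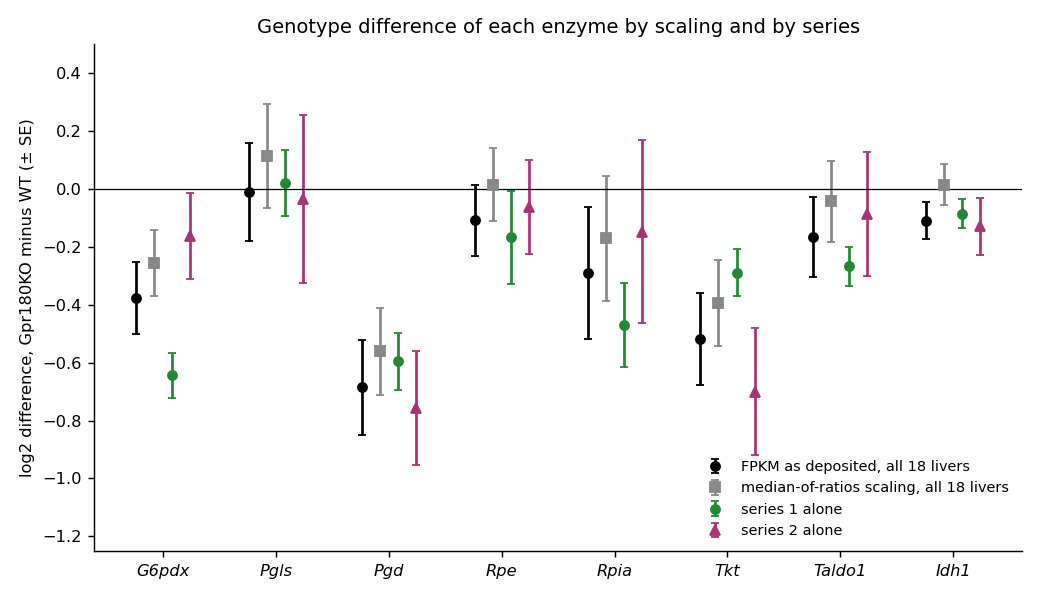
Log2 difference, *Gpr180*KO minus WT, with its standard error for each member in 4 fits: the deposited FPKM, median-of-ratios scaling, series 1 alone and series 2 alone. *Pgd* lies between -0.56 and -0.76 in all 4, *G6pdx* is -0.64 in series 1 and -0.16 in series 2, and *Pgls*, *Rpe* and *Idh1* rise above 0 with the scaling.

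Whether a genotype difference itself differed between the series was tested with an interaction term. None of the 8 members passed (limma adjusted p of 0.589 or above), and 0% of the 10835 genes did. Before adjustment 833 genes had a p under 0.05, 1 of them a member. This was *G6pdx*, whose log2 difference was 0.48 higher in series 2 than in series 1 (SE 0.18, limma adjusted p = 0.589). For *Tkt* the interaction was -0.41 (SE 0.27). In 7 of 8 members the *Gpr180*KO log2 mean was lower in both series, *Pgls* being the exception with 0.02 in series 1. The median log2 difference of all genes tested was also below 0 in each series alone (-0.07 and -0.17). The share of all genes lower in both series was not counted.

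Ratios within a library do not depend on scaling and compare enzymes that work beside each other. The ratio of *Tkt* to *Taldo1* FPKM averaged 0.581 ± 0.066 (SD, n = 9) in WT and 0.460 ± 0.085 (SD, n = 9) in *Gpr180*KO livers. It ran from 0.519 to 0.677 in WT (median 0.550) and from 0.327 to 0.553 in *Gpr180*KO livers (median 0.476). The groups overlapped between 0.519 and 0.553, where 3 of the 4 *Gpr180*KO livers of series 1 and WT livers of both series lay. The log2 ratio was lower by 0.35 in *Gpr180*KO livers (two-sided exact permutation test over 48620 splits, p = 0.00292, adjusted over 2 ratios 0.00584). The lower ratios lay in series 2, where the means were 0.619 and 0.407 and no liver overlapped (log2 -0.62, exact p = 0.00794, the smallest that 5 against 5 livers can give). In series 1 the means were 0.534 and 0.527 (log2 -0.02, exact p = 0.829). The gap between the series was -0.59 (exact permutation of the series labels within genotype, 15876 arrangements, p = 0.00252, adjusted 0.00504). The null of this permutation is no shift between the series in either genotype. Its p therefore does not test equal genotype differences alone. This test was chosen after the values of each series were seen.

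The ratio of *G6pdx* to *Idh1*, the entry of the pathway against 1 of the other sources of cytosolic NADPH, averaged 0.0150 ± 0.00389 (SD, n = 9) in WT and 0.0121 ± 0.00177 (SD, n = 9) in *Gpr180*KO livers. WT livers ranged from 0.00999 to 0.0203 (median 0.0145) and *Gpr180*KO livers from 0.00879 to 0.0153 (median 0.0122). The log2 difference was -0.28 and did not pass (two-sided exact permutation test, p = 0.0753, n = 9 per group). When livers were permuted only within their series, the same difference passed (exact permutation p = 0.0364, also after adjustment over 2 ratios). Here the larger difference lay in series 1: -0.58 without overlap (exact p = 0.0286, the smallest for 4 against 4 livers). Adjusted over 2 ratios, the series 1 difference did not pass (exact permutation adjusted p = 0.0571). Series 2 gave -0.04 (exact p = 0.817). The gap of 0.54 between the series had an exact p of 0.0673 under the same permutation of series labels, with the same limit. The WT livers of series 1 had a mean ratio of 0.0186 and those of series 2 of 0.0121, and the *Gpr180*KO means were 0.0124 and 0.0118.

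**Figure D3:**
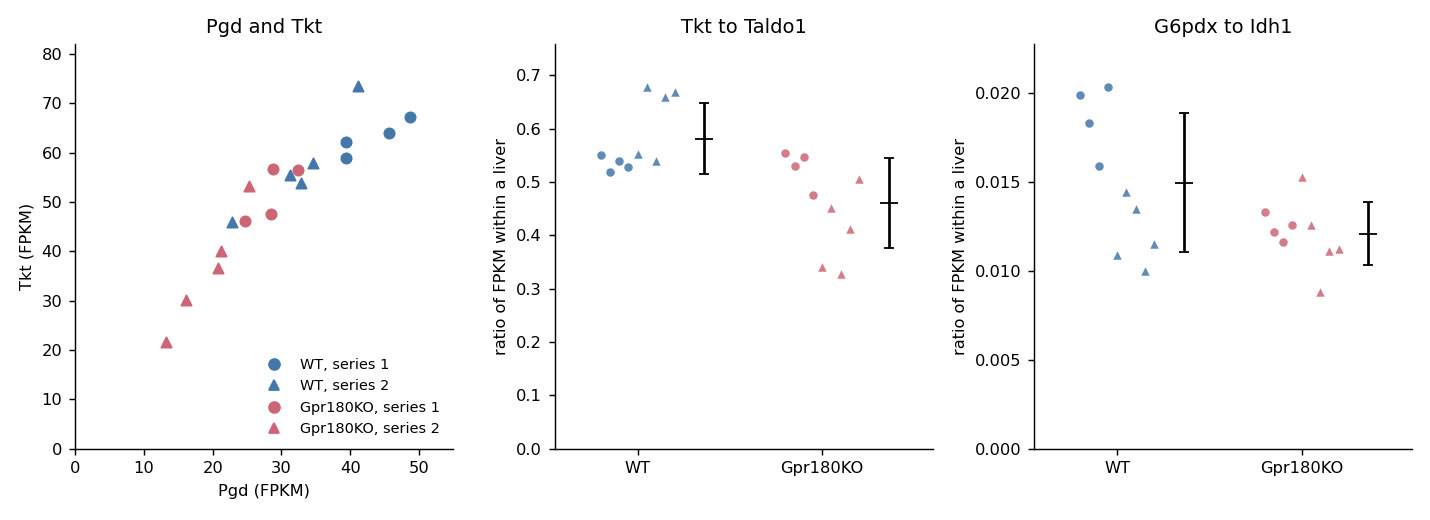
Left, FPKM of *Tkt* against *Pgd* in each liver, with colour for genotype and shape for series. Middle and right, the ratio of *Tkt* to *Taldo1* and of *G6pdx* to *Idh1* within each liver, with the mean ± SD of 9 livers. *Pgd* and *Tkt* lie along 1 line in both genotypes, the *Tkt* to *Taldo1* ratio is low in the *Gpr180*KO livers of series 2, and the *G6pdx* to *Idh1* ratio is high in the WT livers of series 1.

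From mouse to mouse, several members moved together. Log2 values centred within genotype were correlated over the 18 livers in 28 pairs, with permutation p-values (100000 permutations within genotype) adjusted over the 28 pairs. Of the 28 pairs, 14 passed and 12 of these were positive, with a median r of 0.35 over all pairs. The closest pair was *Pgd* and *Tkt* (r = 0.918, rho = 0.934, both permutation p = 1e-05, the smallest that 100000 permutations can give, and adjusted p = 0.00014 and 0.00028). Without the 2 livers farthest from the median of *Pgd*, W134 and KO53, r was 0.887, and with values centred within genotype and series it was 0.924. *G6pdx*, *Pgd*, *Rpia*, *Tkt* and *Taldo1* formed 10 pairs that all passed, with r from 0.561 (*G6pdx* and *Tkt*) to 0.918. When series was removed as well, the 4 pairs of *Rpia* within these 10 no longer passed, and the other 6 did. With median-of-ratios scaling the pair of *Rpia* and *Tkt* no longer passed (permutation adjusted p = 0.0518).

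*Rpe* and *Idh1* stood outside this group. *Rpe* correlated negatively with *Pgls* (r = -0.65, rho = -0.53, permutation adjusted p = 0.0315 and 0.0762) and with *Taldo1* (r = -0.62, rho = -0.56, permutation adjusted p = 0.0315 and 0.0556), and positively with *Idh1* (r = 0.55, rho = 0.50, permutation adjusted p = 0.0305 and 0.0717). None of these 3 passed by rank. Leaving out 2 livers, one of them KO51 in each case, brought the first pair of values to -0.38 and -0.42, and the third to 0.43, so these relations rest partly on those livers. The passing r of *Pgls* and *Taldo1* (0.67) rested on KO51 and KO53, without which it was 0.12. *Idh1* passed with no member other than *Rpe*.

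**Figure D4:**
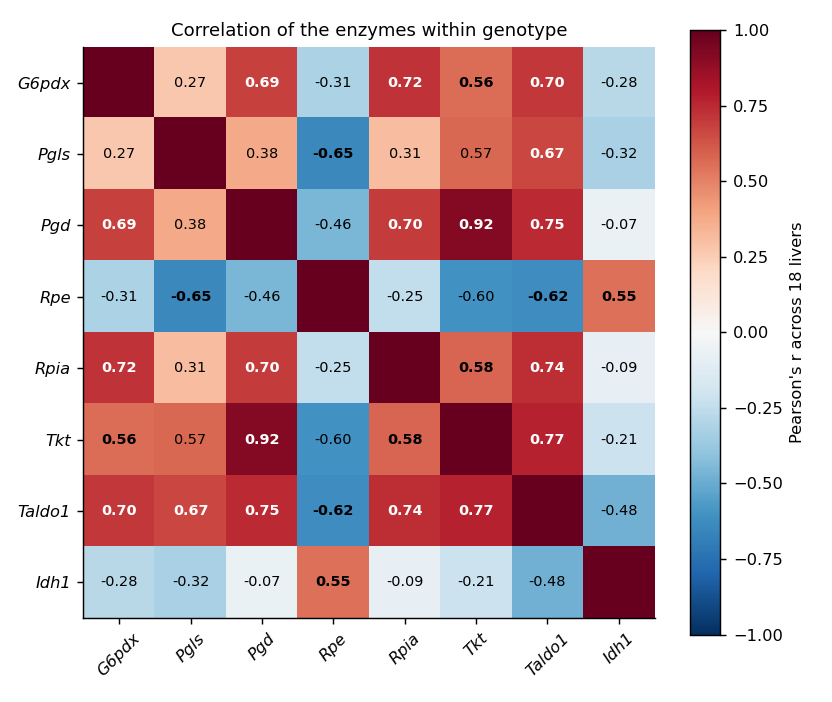
Pearson's r between the members over 18 livers after the mean of each genotype was removed, from -1 (blue) to 1 (red), with bold numbers for pairs with an adjusted permutation p under 0.05. *G6pdx*, *Pgd*, *Rpia*, *Tkt* and *Taldo1* are positively correlated throughout, *Pgd* and *Tkt* most closely at 0.92, whereas *Rpe* has negative r with every pathway member.

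The genes whose log2 FPKM followed *G6pdx* most closely over the 18 livers, genotypes included, were *Ctsd* (r = 0.898), a lysosomal protease, *Cnn2* (0.887), an actin-binding calponin, *Acsl5* (0.873), a fatty acyl-CoA synthetase, *Pkm* (0.866), a pyruvate kinase, and *Pigp* (0.865), of the enzyme complex that starts GPI anchors. *Pgd* had r = 0.817 with *G6pdx* on this measure and *Tkt* 0.726. Those closest to *Idh1* were *Riok2* (0.899), *Guf1* (0.853), *Akap7* (0.841), *Enpp2* (0.840) and *Smad2* (0.834), and its r with *G6pdx* was 0.105. These r values are descriptions, chosen as the highest among the genes tested, and include the difference between the genotypes.

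Around the members, 84 genes of connected reactions were listed by function, of which 73 were tested, and 10 were called lower and 0 higher (limma, adjusted p under 0.05), with a median log2 difference of -0.18. Over all genes tested 4.28% were called lower and 0.452% higher, and the median was -0.13. Among other producers of NADPH, 0 of 7 tested were called. *Me1*, the cytosolic malic enzyme, had 121 to 210 FPKM in WT and 44.2 to 170 FPKM in *Gpr180*KO livers, with a log2 difference of -0.72 (SE 0.23, limma adjusted p = 0.0737). The mitochondrial *Idh2* had -0.35 (limma adjusted p = 0.227) and the mitochondrial transhydrogenase *Nnt* -0.31 (0.183). *H6pd*, the hexose 6-phosphate dehydrogenase of the endoplasmic reticulum, averaged 105 ± 9.80 and 102 ± 15.3 FPKM (SD, n = 9 each), a difference of -0.05 that was well inside its spread. In WT livers *H6pd* thus had a much higher FPKM than *G6pdx*, its cytosolic counterpart. The paralogs contributed little: *G6pd2* did not exceed 0.0428 FPKM in any liver, and *Tktl1* and *Tktl2* were listed at 0 in all 18.

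In the reactions on either side of the pathway, 2 of 17 tested sugar phosphate genes fell. *Gpi1*, glucose 6-phosphate isomerase, which shares its substrate with *G6pdx*, had 70.2 ± 6.94 FPKM in WT and 55.7 ± 9.09 FPKM in *Gpr180*KO livers (SD, n = 9 each, log2 -0.35, limma adjusted p = 0.0446). The gene listed under the symbol *Pgm1* had 3.62 ± 0.79 and 2.04 ± 0.56 FPKM (log2 -0.81, limma adjusted p = 0.0157). *Pgm2* of the same list stood much higher, at 110 ± 11.4 and 111 ± 7.69 FPKM. It was not called (log2 0.02, limma adjusted p = 0.869). Which enzyme the symbols *Pgm1* and *Pgm2* each stood for in the annotation used was not checked. Of the genes around citrate and isocitrate, 1 of 5 fell, *Acly*, the ATP citrate lyase that makes cytosolic acetyl-CoA (145 ± 41.6 to 90.2 ± 21.3 FPKM, SD, n = 9 each, log2 -0.66, limma adjusted p = 0.0424). The citrate carrier *Slc25a1* had -0.25 (0.233). Of 8 genes that use ribose 5-phosphate, 0 were called, with *Prps1* at -0.02 and *Prps2* at -0.33 (limma adjusted p = 0.885 and 0.155).

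The consumers of NADPH in lipid synthesis held the most calls, 5 of 9 tested, with 9 of 9 log2 differences below 0 and a median of -0.75. Of all genes tested, 4.28% were called lower and 76.9% had a log2 difference below 0. Among them *Sqle*, *Cyp51* and *Dhcr7* are enzymes of cholesterol synthesis, and *Hsd17b12* acts in fatty acid elongation. *Sqle*, squalene epoxidase, fell from 33.8 ± 12.1 to 10.5 ± 2.89 FPKM (SD, n = 9 each, log2 -1.63, limma adjusted p = 0.00157). *Cyp51* fell by 0.98 and *Dhcr7* by 0.75 on the log2 scale. *Fasn*, fatty acid synthase, had a log2 difference of -0.81 with a standard error of 0.29 and was not called (limma adjusted p = 0.106). Of the 8 users in redox defence, 0 were called, with -0.17 for glutathione reductase *Gsr* and -0.20 for thioredoxin reductase *Txnrd1* (limma adjusted p = 0.190 and 0.378).

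**Figure D5:**
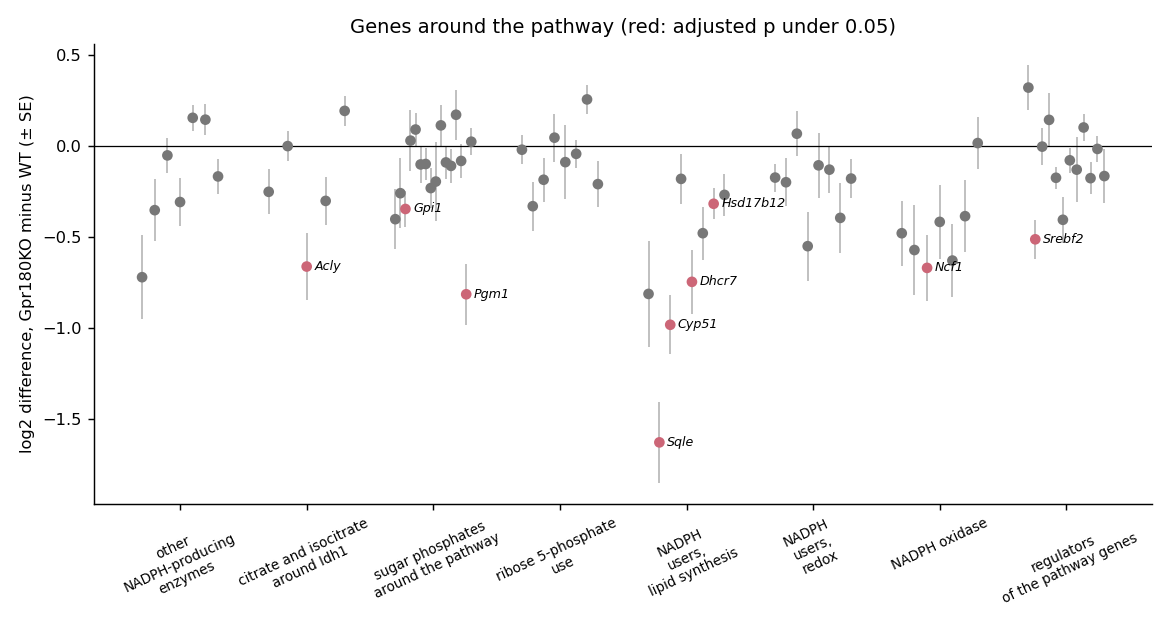
Log2 difference, *Gpr180*KO minus WT, with its standard error for tested genes of the lists around the members, grouped by function. Red, named points are 9 of the 10 genes with an adjusted p under 0.05, all lower in *Gpr180*KO livers, 4 of them among the consumers of NADPH in lipid synthesis.

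Of the NADPH oxidase genes, which belong mainly to phagocytes, 1 of 7 fell, the cytosolic subunit *Ncf1* (2.73 ± 0.97 to 1.61 ± 0.29 FPKM, SD, n = 9 each, log2 -0.67, limma adjusted p = 0.0393), while the catalytic subunit *Cybb* had -0.48 (0.119). Among 12 regulators, 1 fell, *Srebf2*, the sterol-responsive transcription factor (14.1 ± 1.46 to 9.93 ± 1.83 FPKM, SD, n = 9 each, log2 -0.51, limma adjusted p = 0.0159). *Srebf1* had a difference of 0.32 in the other direction (0.138), *Mlxipl*, which encodes ChREBP, 0.14 (0.569) and *Nfe2l2*, which encodes NRF2, -0.41 (0.0676), none of them called.

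Other liver cells also express the pathway, and in bulk tissue fewer cells of a type cannot be told apart from less RNA per cell. Of 9 macrophage markers tested, 3 were called lower (*Cd68*, *Gpnmb* and *Trem2*), and the summed FPKM of the list was 178 to 457 in WT and 211 to 305 in *Gpr180*KO livers. Of 10 markers of stellate cells and fibroblasts 6 were called lower, with sums of 147 to 300 and 83.1 to 150 FPKM (limma, both lists). Both bile duct markers tested, *Sox9* and *Spp1*, were called lower (2 of 2, sums 40.8 to 226 and 17.4 to 51 FPKM). The other bile duct markers listed had a mean under 1 FPKM and were not tested. *Spp1* made up most of the sum, with a median of 124 FPKM in WT livers against 127 FPKM for the list. Whether the *Spp1* transcripts came from bile duct cells was not tested. None of the tested markers of endothelial cells (0 of 8), neutrophils (0 of 3), erythroid cells (0 of 3), adipocytes (0 of 2) or hepatocytes (0 of 10) was called in either direction, and no lymphocyte marker reached a mean of 1 FPKM. The 3 neutrophil markers still had log2 differences of -1.50 to -1.04 (limma adjusted p of 0.0840 to 0.168). The neutrophil list summed to 3.48 to 40.3 FPKM in WT and 4.05 to 10.7 FPKM in *Gpr180*KO livers. The adipocyte marker *Plin1* was listed at 0 in every liver, but the adipocyte list summed to 39.8 to 82.1 FPKM in WT and 21.9 to 345 FPKM in *Gpr180*KO livers. Its tested markers were *Cfd*, at 1.54 to 46.7 FPKM in WT and 4.36 to 278 FPKM in *Gpr180*KO livers, and *Fabp4*. *Fabp4* had 16.3 to 65.6 FPKM in WT and 17.5 to 65.9 FPKM in *Gpr180*KO livers. The hepatocyte markers summed to 18800 to 23065 FPKM in WT and 20909 to 33610 FPKM in *Gpr180*KO livers. The part of these cell types in the differences of *Pgd*, *Tkt* and *G6pdx* was not tested.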

How the data were processed

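Poly(A) RNA of 18 livers was sequenced as single reads, which the authors aligned to mm10 (GRCm38) with TopHat, and deposited as 1 table of FPKM per mouse. The program that computed FPKM and its annotation are not given in the sources used here. The deposited FPKM intervals were used for precision only. The tables hold no counts, so the read depth behind each value is unknown, and the relative depth of the libraries was estimated. FPKM of entries sharing a symbol were summed, and genes with failed estimates were left out (190 values). Genes with a mean of at least 1 FPKM were compared with limma 3.58.1 (R 4.3.3, trend) on log2(FPKM + 0.1), with Benjamini-Hochberg adjustment. A fold change on this scale understates that of low genes. Ratios were tested by exact permutation, correlations by 100000 permutations. The fit was tested on simulated data. Genotype was taken from the labels, and series from the style of the titles, which is not stated to be a batch. The members, lists and tests were chosen with earlier results of these data known. Genes named were the members, up to 4 called genes of each list with the largest change, fixed neighbours such as *Me1* and *Fasn*, the 5 closest patterns of *G6pdx* and of *Idh1*, and, named after their values were seen, called markers. *Hsd17b12* was likewise named to complete its list, and *Pgm2* to stand beside *Pgm1*. The adipocyte markers *Cfd* and *Fabp4* were also named after their values were seen. Other settings tried were a pseudocount of 1 or 0.01, a minimum mean of 0.1 or 5 FPKM or no minimum, scaling by median of ratios, by TPM or by the 75th percentile, a block for series, each series alone, limma without trend, with robust variances or with array weights, and leaving out each library. Promoters were from RefSeq and exons from GENCODE, both GRCm38. *Tigar*, *Nadk2* and *Msmo1* were not analysed here, and 2 other genes of the lists enter the counts but are not reported here.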

Additional observations from a re-analysis of the deposited data

Results flagged for a closer look

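Of 20 groups of 9 livers tested for a single distant value (8 members and 2 ratios, each in 2 genotypes), 3 had one, where chance gives about 1 in 20. *Pgls* in the *Gpr180*KO liver KO51 was 81.1 FPKM, with the next liver at 42.5 FPKM. *Taldo1* in KO51 was 155.97 FPKM, with the next *Gpr180*KO liver at 103 FPKM. *Pgls* in the WT liver W133 was 47.8 FPKM, above the next WT liver at 38.1 FPKM. KO51 was also the library with the highest FPKM sum, and its part in these values was not tested.

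The log2 difference of the *Tkt* to *Taldo1* ratio between the genotypes differed between the series by -0.59 (exact permutation within genotype, p = 0.00252), with -0.62 in series 2 and -0.02 in series 1. The null of this permutation is no shift between the series in either genotype, so its p does not test equal genotype differences alone.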

How the results depend on the processing

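The number of members called lower (1, *Pgd*) was 0 with median-of-ratios scaling and in series 2 alone, 2 with TPM scaling and in series 1 alone, 3 with array weights and with series as a block, and 0 to 2 with a library left out. It was 0 without W317, W318, W133, KO52 or KO54 and 2 without W157, KO319, KO321 or KO51. No member was called higher, and none differed between the series, under any alternative run. The 464 genes called lower became 776 and 200 with FPKM minimums of 0.1 and 5, 171 with median-of-ratios and 214 with 75th percentile scaling, 1031 with the block, 1161 with array weights and 0 in series 2 alone (2019 genes with an unadjusted limma p under 0.05), and 116 (without W133) to 844 (without W157) with a library left out. The 49 called higher became 112, 108, 122 and 170 with the 2 scalings, the block and array weights, 248 with median-of-ratios scaling and the block together, 90 in series 1 and 0 in series 2, and 16 (without W133) to 89 (without KO51). *Idh1* and *Rpe* turned to 0.015 with median-of-ratios scaling, with or without the block. *Pgls*, near 0, turned to 0.11 with that scaling, with or without the block, 0.083 with 75th percentile scaling and 0.020 in series 1, and ran from -0.15 (without KO51) to 0.068 (without KO53) with a library left out. The *Tkt* to *Taldo1* ratio was -0.022 in series 1 and -0.39 to -0.29 with a library left out. The *G6pdx* to *Idh1* ratio, -0.28, passed with permutation within series (exact adjusted p = 0.0364) and without W131, W156, W157 or KO51, with values of -0.35 to -0.22 over all libraries left out. Correlations passed in 9 pairs when centred on series too, 7 of them among the 14. With median-of-ratios scaling 12 pairs passed, 10 of them among the 14. Those lost with that scaling were *Rpia* with *Tkt*, *Pgls* with *Rpe* and with *Taldo1*, and *Rpe* with *Taldo1*. The causes of these changes were not tested. No paired analysis was possible because the labels number mice, not pairs. Low FPKM limits *Rpia* and *G6pdx* most.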
